A study of Rattus norvegicus with 9 samples.

Results

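The cytosolic ribosomal protein genes were examined in rat gastrocnemius, the large calf muscle, after treatment with a glucocorticoid alone or together with an androgen. Members were all probe sets whose only gene symbol in the platform annotation begins with Rpl or Rps and a digit, or is Rplp0, Rplp1, Rplp2 or Rpsa, with the S6 kinase genes left out. This rule, which uses no measured value, gave 50 genes with 57 probe sets, among 14217 genes with a single symbol and 31042 probe sets on the array. Of these, 51 probe sets of 45 genes were bright enough to be tested, 31 genes counted to the large subunit and 14 to the small one. This split goes by the symbol alone, Rpl or Rps. It takes in Rpl37-ps2, a pseudogene by its symbol, and Rpl7l1, which serves in ribosome assembly. The other 6 probe sets had mean signals of at most 5.67 on the log2 scale, and through them Rpl28, Rpl30, Rpl39l1, Rps13 and Rps4x-ps1 had no tested probe set, while Rpl14 kept one.

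All animals were male Wistar rats of 250 g, their age not being given, and all carried a pump that infused propylene glycol for 7 days. In the vehicle group it held nothing else, in the dexamethasone group it delivered 0.7 mg/kg/day of the synthetic glucocorticoid dexamethasone, and in the third group it delivered that dose plus testosterone, given as 28 mg/kg/day in the sample labels and as 20 mg/kg/day in the series design. Each group had 3 animals, and RNA of 20 mg of each muscle was hybridised to an Affymetrix rat 230-2 array, 1 array per animal. The design asks whether glucocorticoid alters muscle transcripts and whether testosterone alters that response.

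A cytosolic ribosome joins a small subunit, which reads the messenger RNA, to a large subunit, which forms peptide bonds. Each is built in the nucleolus from ribosomal RNA and many proteins made in near equal numbers. The messenger RNAs of these proteins typically begin with a run of pyrimidines, the terminal oligopyrimidine or TOP motif, through which the mTORC1 kinase controls their translation more than their amount. Glucocorticoid excess causes muscle atrophy in which protein synthesis falls and breakdown rises, and androgens are anabolic in muscle.

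The start regions of 43 of the 50 genes were found in RefSeq (build GRCr8). An unbroken run of at least 6 C and T bases on the gene's strand that covered the annotated start was present in 19 of the 43 (44.2%), against 2766 of 33469 promoters of all genes (8.26%). The same run of A and G, which is that motif on the other strand, was present in 1 of the 43 (2.33%) against 10.6%. The windows below hold 15 bases before the annotated start and 15 from it onward, with the run of C and T at the start in capitals. They show a classical stalk, tunnel and surface protein with such a run (Rplp0, Rpl4 and Rpl35a), the member with the lowest p in the comparison of both hormones with vehicle (Rpl39), and the pair Rpl3 and Rpl3l with Rps6, whose values are described below.
Rplp0: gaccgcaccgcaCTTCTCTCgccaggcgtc
Rpl4: taagTTCTTCCTTTTCCTgtgggagcagcc
Rpl35a: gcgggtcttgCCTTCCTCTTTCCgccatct
Rpl39: tcttctaatcgcgTTCTTCCggcctgtcct
Rpl3: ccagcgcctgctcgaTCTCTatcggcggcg
Rpl3l: gacctctggtgcctggtggggaggtccctt
Rps6: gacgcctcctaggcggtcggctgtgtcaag

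These windows lie at chr12:46718376-46718405 on the minus strand for Rplp0, chr8:73566462-73566491 on the plus strand for Rpl4 and chr11:81235007-81235036 on the minus strand for Rpl35a. They lie at chrX:121195882-121195911 on the minus strand for Rpl39, chr7:113507976-113508005 on the minus strand for Rpl3, chr10:14258431-14258460 on the plus strand for Rpl3l and chr5:106420526-106420555 on the minus strand for Rps6. The run measured 8 bases in Rplp0, 14 in Rpl4, 13 in Rpl35a, 7 in Rpl39 and 5 in Rpl3, and neither Rpl3l nor Rps6 had a C or T at the first base. A run that is missing here says only that these letters do not cover the annotated start, which can lie some bases away from the used one. Over the whole promoter, 250 bases before to 50 after the start, the Myc-type E-box CACGTG was present in 3 of the 43 genes (6.98%), Rpl13a, Rpl14 and Rps28, against 6.42% of all promoters. The glucocorticoid receptor's palindrome, AGAACA then any 3 bases then TGTTCT, was present in 0 of the 43 and in 5 of all promoters (0.0149%). Both of these motifs read the same on either strand, and none of the motifs overlaps another in its letters.

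The deposited signals were not on a common scale, and the arrays fell into 3 technical sets by their scaling and control probes. Set A (vehicle 1 and 3, dexamethasone 1, dexamethasone plus testosterone 1) had trimmed mean signals of 113.3 to 206.8, against 500.3 on the other 5 arrays. Set C (dexamethasone 3 and dexamethasone plus testosterone 3) was told from set B by the control probe set dap, which is no muscle gene. Its signals were 1626 and 2778 in set C and 32320 to 34970 in set B. The Gapdh 3′ to 5′ probe ratios, which did not define the sets, were 4.94 and 6.22 in set C, against 1.06 to 1.17 on the other 7. Such a ratio is high where the labelled RNA is short. Set B held animal 2 of each group. The labels name no batch. The 9 arrays were quantile normalised, and all signals below are log2(signal + 16), with errors as standard errors of limma's fit over 3 animals per group. That fit draws the variance of each probe set toward a value shared by all probe sets. For members that vary little, the error can therefore exceed the spread of the animals. Rpl3l, with group SDs of 0.05, 0.15 and 0.03, had an error of 0.16. The intervals and p-values below carry the same shared variance. Signals of different probe sets are not compared as levels, since probes differ in efficiency. Defining muscle fibre transcripts were bright on every array, with skeletal actin (Acta1) at 14.91 to 15.16 and creatine kinase (Ckm) at 14.82 to 15.09, and the median change of the 9 fibre markers tested was -0.04 with dexamethasone.

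With dexamethasone against vehicle, 0 of 51 ribosomal protein probe sets passed the adjusted p of 0.05 (limma, Benjamini-Hochberg over 18625 probe sets), where 1.05% of all probe sets tested did. At an unadjusted p under 0.05 the count was 0 of 51, against 15.5% of all. The shared variance of the fit can make these p-values larger for members that vary little. The median change was 0.07 (range -0.42 to 0.34), against 0.01 over all probe sets. Above 0 were 35 members (68.6%) and below it 16, where 51.2% of all probe sets were above 0. Genes of the large subunit (median 0.07, 31 genes) and of the small subunit (0.07, 14 genes) had the same median. The lowest adjusted p among the members was 0.394.

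Few members had groups that did not overlap. Rpl18 and Rps6 were higher in every dexamethasone animal than in every vehicle animal, 2 of 51 (3.92%), where 12.5% of all probe sets were. Rpl35a and Rpl3l were lower in every dexamethasone animal, again 2 of 51, where 10.4% of all probe sets were.

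With testosterone added, against dexamethasone alone, 0 of 51 passed (0.113% of all probe sets did), and 1 of 51, Rpl3l, had an unadjusted p under 0.05 (11% of all did). The median change was -0.02 (range -0.53 to 0.43), against 0 over all probe sets. Above 0 were 24 members (47.1%) and below it 27, where 49.9% of all probe sets were above 0. The lowest adjusted p was 0.408. Rpl3l, Rpl5 and the second probe set of Rpl3 were higher in every animal given both hormones, 3 of 51 (5.88%) against 7.24% of all probe sets. Rps6 was lower in each of them, 1 of 51 (1.96%) against 7.35%.

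With both hormones against vehicle, 0 of 51 passed, and so did 0% of all probe sets. At an unadjusted p under 0.05 there was 1 of 51, Rpl39, against 6.12% of all. The median change was 0.05 (range -0.55 to 0.28), against 0.02 over all. Above 0 were 33 members (64.7%) and below it 18, where 52.2% of all probe sets were above 0. The lowest adjusted p was 0.815. Rpl18, Rpl35, Rpl3l, Rpl4, Rpl41, Rpl5 and Rps28 were higher in every animal given both hormones than in every vehicle animal, 7 of 51 (13.7%) against 7.53% of all probe sets. Rpl21 and Rpl39 were lower, 2 of 51 (3.92%) against 5.79%.

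**Figure D1:**
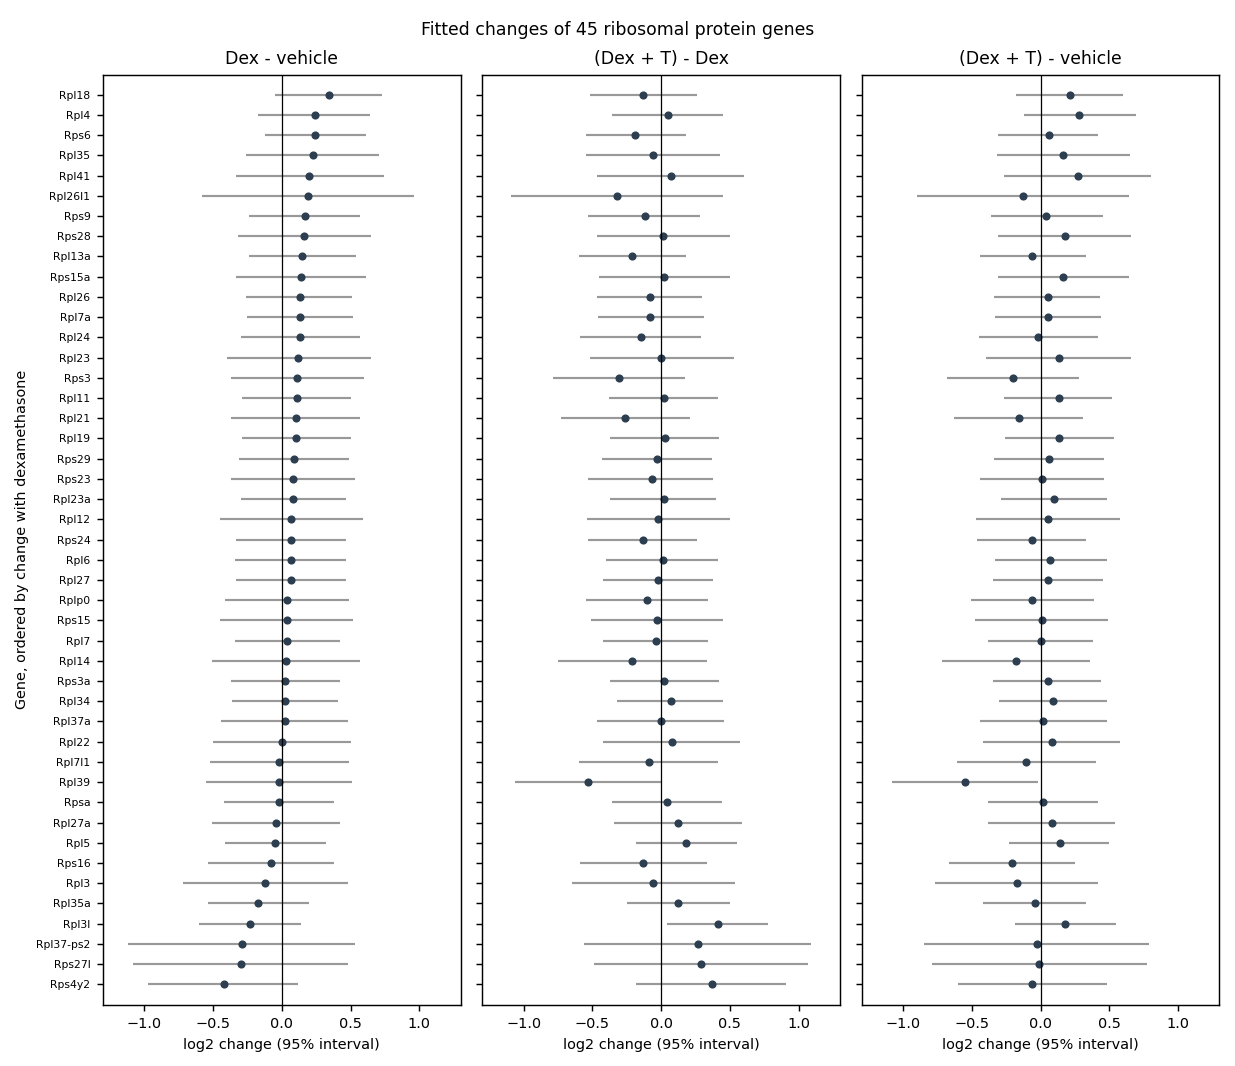
Fitted log2 change (points) with its 95% interval (lines) for the 45 tested ribosomal protein genes, 1 probe set per gene, in the 3 comparisons, in 1 order set by the change with dexamethasone; the vertical line marks 0. The points lie between -0.55 and 0.41, and the intervals that leave out 0 are those of Rpl3l in the middle panel and Rpl39 in the right panel, before any adjustment.

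The missing calls came with narrow intervals. The median 95% interval of a member reached 0.45 to either side of its fitted change, against 0.61 over all probe sets. Its whole interval lay within a doubling or halving (-1 to 1) for 48, 46 and 49 of the 51 members in the 3 comparisons (94.1%, 90.2% and 96.1%), against 55.5%, 60.1% and 63.4% of all probe sets. For the 41 members with a mean signal above 10, a split made after the values were seen, all intervals lay within those bounds, from -0.72 to 0.74 with dexamethasone, from -0.79 to 0.78 with testosterone added and from -0.77 to 0.80 with both hormones against vehicle. For these members a change of a doubling or more in relative signal was outside the 95% interval, while differences under about 0.45 lay inside the median interval. Their mean signals reached 14.78 (Rps29). Whether the array signal follows the RNA amount in proportion at such brightness was not tested, so the intervals hold for the signal only. In whole muscle, fewer cells of a type and less RNA per cell cannot be told apart, and a signal normalised to the rest of the RNA does not show ribosome number.

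The dexamethasone animals differed from one another more than they differed from vehicle as a group. The median of the 51 probe sets relative to the vehicle mean was -0.02, 0.01 and 0.01 in vehicle animals 1 to 3. It was 0.24, -0.15 and 0.08 in the dexamethasone animals and 0.08, 0.02 and 0.06 in those given both hormones. The SD of these array medians was 0.196 in the dexamethasone group, against 0.0195 in the vehicle group and 0.0335 with both hormones (n = 3 each). Dexamethasone animal 1 lay above and animal 2 below the vehicle animals for most members.

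The counts of single members showed the same spread. In dexamethasone animal 1, 35 of 51 probe sets (68.6%) lay above all 3 vehicle animals, against 33.6% of all probe sets tested on that array. In animal 2, 34 of 51 (66.7%) lay below all 3 vehicle animals, against 32.8% of all. In animal 3, 28 (54.9%) lay above and 13 (25.5%) below, against 36.9% and 28.6%. With both hormones, 25, 16 and 26 of the 51 lay above all vehicle animals (49%, 31.4% and 51%). Of all probe sets tested, 26.8%, 27.4% and 39.5% did. Below all vehicle animals lay 7, 12 and 15 of the 51 (13.7%, 23.5% and 29.4%), against 25.4%, 25.4% and 29.8% of all. Most members thus lay on the same side of vehicle in dexamethasone animal 1, and on the other side in animal 2.

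**Figure D2:**
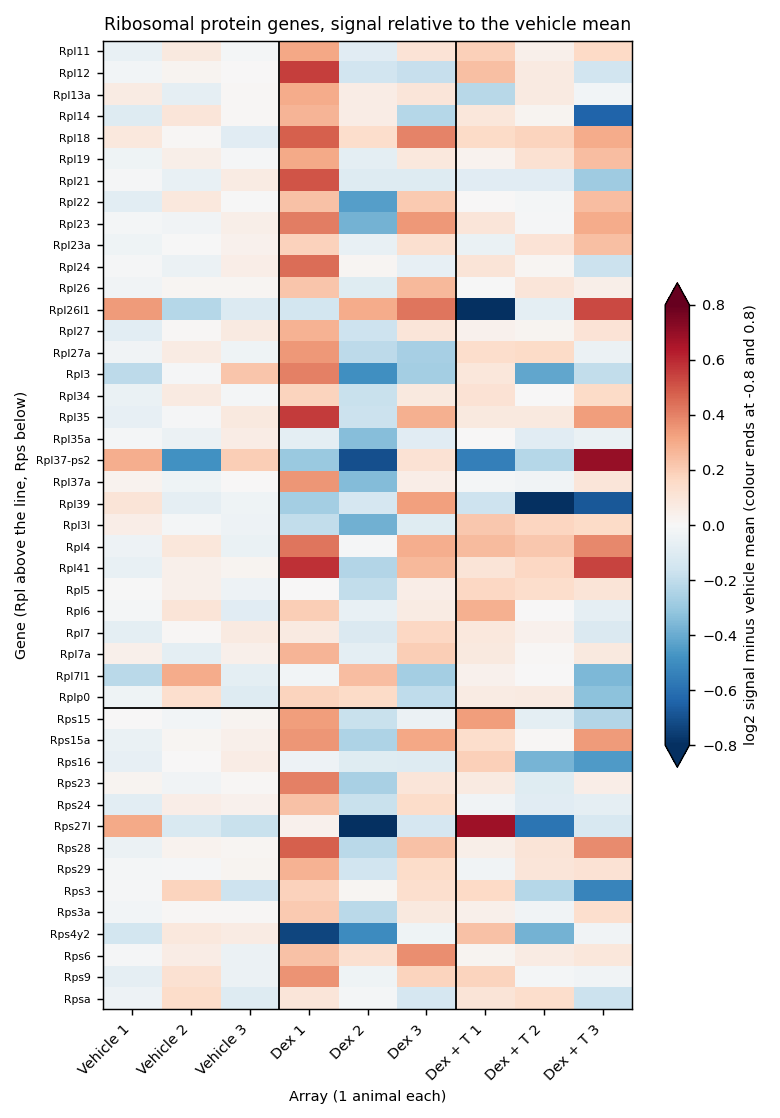
Log2 signal minus the vehicle mean for the 45 tested ribosomal protein genes (rows; large subunit above the black line) on the 9 arrays (columns), with red for higher and blue for lower and the colour ending at -0.8 and 0.8. The column of dexamethasone animal 1 is mostly red and that of animal 2 mostly blue, while the vehicle columns are pale.

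Within a group the members varied little. The median SD between the 3 vehicle animals was 0.0674 over the 45 genes, against 0.239 over all probe sets tested. It was 0.223 against 0.322 in the dexamethasone group and 0.145 against 0.311 with both hormones. Bright probe sets vary less in general. The 39 genes with a mean above 10 were therefore set beside the 2775 probe sets tested with such a mean. The median SDs of the 39 genes were 0.0619, 0.217 and 0.114 in the 3 groups, against 0.135, 0.252 and 0.203. This lower bound does not match the 2 sets in brightness. All of the 39 genes but Rpl3 (11.43) had means of 12.7 or above, so equally bright probe sets were not compared.

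The scatter of the dexamethasone arrays moved with the technical sets and in size with the normalization. Each dexamethasone array lay in a set of its own, so animal and set cannot be told apart within that group. Within set A the median difference of dexamethasone from vehicle was 0.26, with 41 of 51 above 0, and within set B it was -0.16, with 6 above 0 and 44 below. For testosterone added to dexamethasone the medians were -0.21 in set A, 0.18 in set B and 0 in set C. For both hormones against vehicle they were 0.09 in set A and 0.01 in set B. Without dexamethasone animal 1 the median change against vehicle was -0.03 in place of 0.07, and without animal 2 it was 0.16. With testosterone added these omissions gave 0.12 and -0.14 in place of -0.02. The sign of either median was therefore set by single dexamethasone arrays. With trimmed mean scaling the median with dexamethasone was -0.03, but that of all probe sets was -0.09, so the members stayed above the rest as in the quantile fit. With testosterone added it was 0.12, against -0.01 over all probe sets.

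Other scalings left the order of dexamethasone animals 1 and 2 in place. With trimmed mean scaling the array medians of the dexamethasone animals were 0.04, -0.12 and -0.01, where the median of all probe sets was itself -0.09, 0.02 and -0.09. Relative to that median they were 0.13, -0.14 and 0.07. With cyclic loess they were 0.17, -0.11 and -0.05. With both hormones the array medians were 0.11, 0.03 and 0.10 under trimmed mean scaling, with all probe sets at 0.01, -0.03 and -0.12, and 0.06, -0.05 and -0.06 under cyclic loess.

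**Figure D3:**
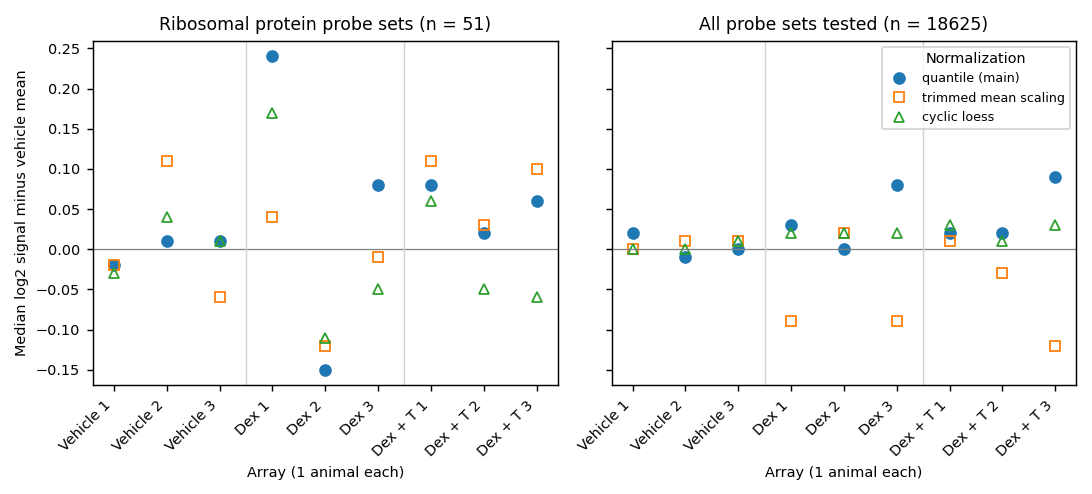
Median log2 signal minus the vehicle mean on each of the 9 arrays for the 51 ribosomal protein probe sets (left) and all 18625 probe sets tested (right), under quantile normalization (filled circles), trimmed mean scaling (squares) and cyclic loess (triangles). Dexamethasone animal 1 lies above 0 and animal 2 below 0 in the left panel under each of the 3, at 0.24 and -0.15 after quantile normalization.

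Rpl3l, the paralogue of Rpl3 that is made almost only in heart and skeletal muscle and there takes the place of Rpl3 in part of the ribosomes, had 3 groups that did not overlap. Its log2 signal was 13.73, 13.66 and 13.64 in the vehicle animals. It was 13.48, 13.29 and 13.58 with dexamethasone and 13.89, 13.85 and 13.83 with both hormones. All 3 dexamethasone animals thus lay below the vehicle animals, and all 3 given both hormones lay above them. The difference of dexamethasone from vehicle was -0.23 ± 0.16 (adjusted p = 0.557, limma). That of both hormones from dexamethasone was 0.41 ± 0.16, a 1.33-fold ratio with a 95% interval of 0.04 to 0.78 (unadjusted p = 0.0343, adjusted p = 0.408, limma). That of both hormones from vehicle was 0.18 ± 0.16 (adjusted p = 0.9).

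Since the 3 groups of Rpl3l did not overlap, its order inside the technical sets was fixed, and only the sizes are given. With testosterone added its difference was 0.41 in set A, 0.56 in set B and 0.25 in set C. With dexamethasone it was -0.20 in set A and -0.37 in set B, although the median of all members was above 0 in set A and below 0 in set B. None of the 3 differences passed the adjusted threshold, and Rpl3l is 1 of 51 members looked at.

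Rpl3, the general form, which helps shape the peptidyl transferase centre, showed no such order. Its brighter probe set read 11.32, 11.52 and 11.75 in the vehicle animals, 11.94, 11.04 and 11.26 with dexamethasone, and 11.62, 11.11 and 11.33 with both hormones. The 3 groups overlapped, and the differences were -0.12, -0.06 and -0.17 in the order of the comparisons above, each with a standard error of 0.27. Its second probe set, of a type that can take up related transcripts, differed by -0.37 with dexamethasone and by 0.43 ± 0.25 with testosterone added (adjusted p = 0.602, limma). This dimmer probe set, with a mean of 7.98, followed Rpl3l in direction and the brighter Rpl3 probe set did not follow it when testosterone was added.

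**Figure D4:**
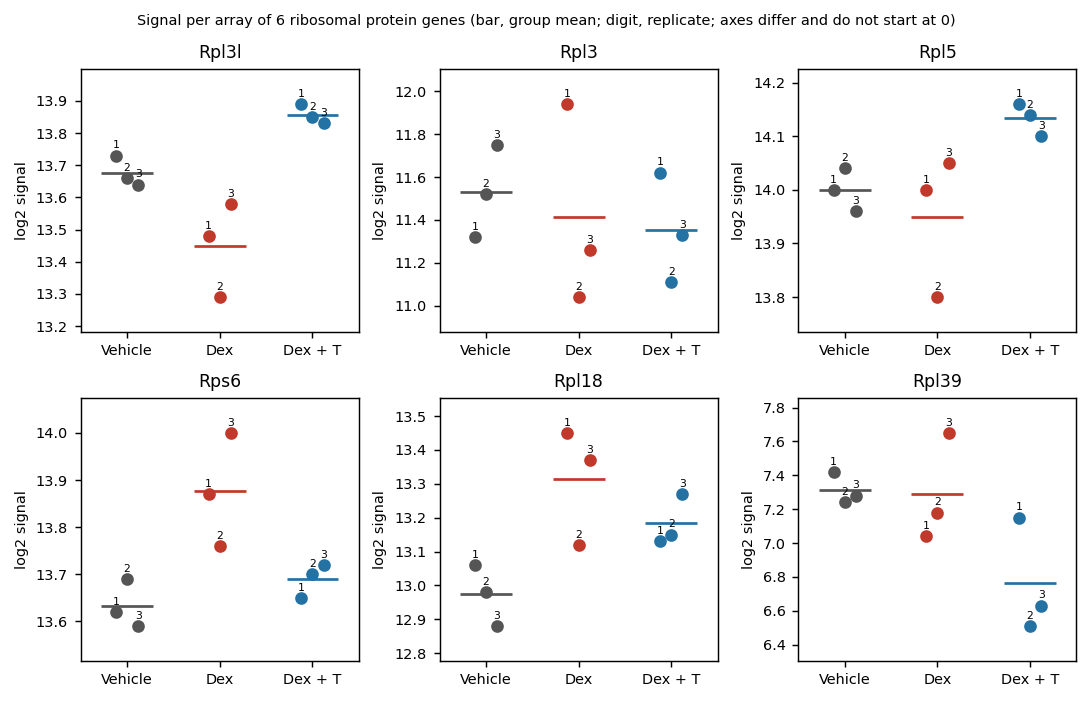
Log2 signal of Rpl3l, Rpl3, Rpl5, Rps6, Rpl18 and Rpl39 in each animal (points, with the replicate number) and the group mean (bars), on axes that differ between panels and do not start at 0. For Rpl3l the dexamethasone animals span 13.29 to 13.58, below the vehicle animals at 13.64 to 13.73 and those given both hormones at 13.83 to 13.89.

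Rps6, the small subunit protein that S6 kinase phosphorylates downstream of mTORC1, read 13.62, 13.69 and 13.59 in the vehicle animals. It read 13.87, 13.76 and 14.00 with dexamethasone and 13.65, 13.70 and 13.72 with both hormones. The dexamethasone animals lay above both other groups, which overlapped. The difference was 0.24 ± 0.16 with dexamethasone (adjusted p = 0.516, limma) and -0.19 ± 0.16 with testosterone added (adjusted p = 0.747).

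Rps3, a protein of the messenger RNA entry channel that also has a part in DNA repair, read 12.88, 13.06 and 12.72 with vehicle, 13.07, 12.91 and 13.02 with dexamethasone and 13.05, 12.66 and 12.36 with both hormones. The groups overlapped, with the lowest value in animal 3 of the last group, an array of set C with a Gapdh 3′ to 5′ ratio of 6.22. Its difference with testosterone added was -0.31 ± 0.21 (adjusted p = 0.673, limma).

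Rpsa, the small subunit protein also known as the laminin receptor precursor, read 13.43, 13.61 and 13.37 with vehicle, 13.56, 13.46 and 13.34 with dexamethasone and 13.57, 13.61 and 13.30 with both hormones. Its 3 probe sets differed by -0.02, 0.20 and 0.09 with dexamethasone, none of them beyond its standard error of 0.17 to 0.20. Rps9 differed by 0.17 ± 0.18 with dexamethasone, and Rps16 by -0.21 ± 0.20 with both hormones against vehicle, where animal 1 of the last group stood at 14.00 and animals 2 and 3 at 13.44 and 13.36. None of the 14 small subunit genes passed the test in any comparison.

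Rpl18, a large subunit surface protein, had the lowest unadjusted p with dexamethasone. It read 13.06, 12.98 and 12.88 with vehicle, 13.45, 13.12 and 13.37 with dexamethasone, and 13.13, 13.15 and 13.27 with both hormones. Vehicle was below both other groups, and these overlapped. The difference was 0.34 ± 0.17 with dexamethasone, a 1.26-fold ratio (adjusted p = 0.394, limma), and 0.21 ± 0.17 with both hormones against vehicle (adjusted p = 0.9).

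Rpl4, whose long loop lines the exit tunnel, read 13.33, 13.46 and 13.32 with vehicle, 13.80, 13.36 and 13.66 with dexamethasone and 13.63, 13.59 and 13.76 with both hormones. Animals given both hormones lay above the vehicle animals, at a difference of 0.28 ± 0.18 (adjusted p = 0.862, limma), while dexamethasone animal 2 lay within them. Rpl35, which sits near the tunnel's exit, differed by 0.23 ± 0.22 with dexamethasone and by 0.16 with both hormones against vehicle. Rpl41, a very short basic peptide at the subunit interface, differed by 0.27 ± 0.24 with both hormones. In Rpl4, Rpl35 and Rpl41 alike, dexamethasone animal 1 had the highest signal of the 9 arrays.

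Rpl5 and Rpl11, which enter the large subunit together with the ribosome's smallest RNA and bind Mdm2 when ribosome assembly is disturbed, were examined as a pair. Rpl5 read 14.00, 14.04 and 13.96 with vehicle, 14.00, 13.80 and 14.05 with dexamethasone and 14.16, 14.14 and 14.10 with both hormones. Animals given both hormones lay above all the others, at 0.18 ± 0.16 from dexamethasone (adjusted p = 0.752, limma) and 0.14 ± 0.16 from vehicle. Rpl11 read 13.26, 13.39 and 13.30 with vehicle, 13.63, 13.23 and 13.43 with dexamethasone and 13.51, 13.36 and 13.48 with both hormones, and its groups overlapped. Its difference from vehicle was 0.11 ± 0.18 with dexamethasone and 0.13 ± 0.18 with both hormones.

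Rpl39, a small protein that narrows the exit tunnel, had the lowest signals with both hormones. It read 7.42, 7.24 and 7.28 with vehicle, 7.04, 7.18 and 7.65 with dexamethasone, and 7.15, 6.51 and 6.63 with both hormones. All 3 of the last lay below the vehicle animals, animal 1 by the least, and animal 1 overlapped the dexamethasone group. The difference was -0.55 ± 0.24 from vehicle, a 1.46-fold ratio (unadjusted p = 0.0435, adjusted p = 0.815, limma), and -0.53 ± 0.24 from dexamethasone (adjusted p = 0.461). This probe set is among the 10 tested members with a mean of 10 or below, where probe noise weighs more.

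Rplp0, the base of the stalk that recruits elongation factors and a common reference gene in muscle work, read 13.73, 13.90 and 13.66 with vehicle, 13.94, 13.92 and 13.56 with dexamethasone and 13.83, 13.84 and 13.44 with both hormones. The groups overlapped, and animal 3 was the lowest of each group, in set A for vehicle and in set C for the treated groups. Its differences were 0.04, -0.10 and -0.06, each ± 0.20. Rpl13a, used likewise as a reference gene and known for silencing inflammatory transcripts, differed by 0.15 ± 0.17 with dexamethasone and by -0.21 ± 0.17 with testosterone added. Rpl22 differed by 0, 0.08 and 0.08 in the 3 comparisons, with dexamethasone animal 2 at 13.47 and all other animals at 13.83 or above.

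Rpl35a, a large subunit protein whose gene is mutated in some patients with Diamond-Blackfan anaemia, was opposite in direction to most members. It read 13.94, 13.91 and 14.01 with vehicle and 13.87, 13.61 and 13.86 with dexamethasone, groups that did not overlap, at a difference of -0.17 ± 0.16 (adjusted p = 0.674, limma). With both hormones it read 13.96, 13.86 and 13.90. Rpl21 read 13.40, 13.34 and 13.47 with vehicle and 13.31, 13.31 and 13.12 with both hormones, while dexamethasone animal 1 stood at 13.91 and animals 2 and 3 at 13.30. Its difference with testosterone added was -0.26 ± 0.21 (adjusted p = 0.726).

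With 1 probe set per gene, its brightest, the genes with the smallest SD over the 9 arrays were Rpl7 (0.0991), Rpl5 (0.108), Rpl23a (0.11), Rpl35a (0.111) and Rpl34 (0.113), all of the large subunit and all bright. Those with the largest SD were Rpl37-ps2 (0.459, a pseudogene by its symbol), Rps27l (0.435), Rpl26l1 (0.427), Rpl39 (0.357) and Rps4y2 (0.315), all with mean signals below 10. Among all tested probe sets the dim second one of Rpl7 had an SD of 0.54 and that of Rpl3 0.33.

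Among the paralogues other than Rpl3l, Rps4y2, whose RefSeq start lies on chromosome 4, read 6.28, 6.52 and 6.50 with vehicle, 5.70, 5.93 and 6.40 with dexamethasone and 6.66, 6.05 and 6.40 with both hormones. Its difference with dexamethasone was -0.42 ± 0.24 (adjusted p = 0.444, limma), the lowest of the members, and the groups overlapped at animal 3. Rps27l, a form of Rps27 that p53 induces, differed by -0.30 ± 0.35, 0.29 ± 0.35 and -0.01 ± 0.35 in the 3 comparisons. Its animals ranged from 8.47 to 9.94, and the highest and lowest were a treated animal of set A and one of set B. Rpl7l1, a form of Rpl7 that serves in ribosome assembly, differed by -0.02, -0.09 and -0.11 in its brighter probe set and by -0.17, 0.19 and 0.02 in the other.

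Several probe sets were available for 6 genes, and their brighter and dimmer members did not always share a sign. For Rpl7 the probe set of mean 13.76 differed by 0.04, -0.04 and 0, and that of mean 8.11 by -0.19, -0.11 and -0.30. For Rps24 the probe set of mean 13.88 differed by 0.07, -0.13 and -0.06, and that of mean 6.37 by -0.04, 0.11 and 0.07. None of these passed the test, and dim second probe sets added spread to the members' count. Ribosomal protein genes have many processed pseudogenes with near identical sequence, which probes cannot always tell from the gene.

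Some textbook members could not be followed. Rplp1, Rplp2, Rps2, Rps18, Rps19, Rpl10, Rps27, Rps27a, Rpl22l1, Rpl39l and Rpl36al had no probe set with that single symbol in the annotation and are not analysed here by name. Rack1, a small subunit protein whose symbol lies outside the rule, read 13.27, 13.59 and 13.24 with vehicle, 13.57, 13.26 and 13.66 with dexamethasone and 13.52, 13.68 and 13.65 with both hormones. Its groups overlapped, at 0.13 ± 0.19, 0.12 ± 0.19 and 0.25 ± 0.19 in the 3 comparisons.

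Ribosome assembly factors and the transcription machinery of ribosomal RNA were described beside the proteins, from a list of 94 genes of which 90 were tested. None passed the adjusted threshold in any comparison. Their median change was 0.31 with dexamethasone, with 78 of 90 above 0 and 19 of 90 at an unadjusted p under 0.05, where 15.5% of all probe sets were. It was -0.14 with testosterone added, with 24 above 0 and 8 at that p (11% of all), and 0.18 with both hormones against vehicle, with 72 above 0 and 4 at that p (6.12% of all). The medians over all probe sets were 0.01, 0 and 0.02, with 51.2%, 49.9% and 52.2% of them above 0. The list was counted with 1 probe set per gene, its brightest, and these shares over all probe sets. The lowest p with dexamethasone belonged to Rrp12, a factor in the maturation and export of both subunits, at 1.38 ± 0.30 (adjusted p = 0.0646, limma). Next were Sdad1, a factor of large subunit biogenesis, at 1.33 ± 0.31 (adjusted p = 0.0833) and Mphosph10, a part of the small subunit processome, at 1.06 ± 0.26 (adjusted p = 0.0945).

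The list's array medians were 0.45, 0.17 and 0.34 in the dexamethasone animals, all above those of the vehicle animals (0.04, -0.01 and -0.03). They were 0.06, 0.10 and 0.38 with both hormones. Dexamethasone animal 2 thus stood above vehicle for the assembly factors while it stood below for the ribosomal proteins. Fibrillarin (Fbl), which methylates ribosomal RNA, differed by -0.13 ± 0.17 with dexamethasone and nucleolin (Ncl) by 0.32 ± 0.25. Ubtf, the RNA polymerase I factor, differed by 0.37 ± 0.21 (adjusted p = 0.45, limma).

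Of the other transcripts with a TOP start, mostly translation factors, 19 of 27 listed were tested and none passed. Their medians were 0.19 with dexamethasone, -0.31 with testosterone added and 0.02 with both hormones against vehicle. Above 0 were 16, 5 and 11 of 19, against 51.2%, 49.9% and 52.2% of all probe sets. At an unadjusted p under 0.05 there were 3, 5 and 2 of 19, against 15.5%, 11% and 6.12% of all. Eef1a1, the elongation factor that brings aminoacyl-tRNA to the ribosome, read 12.66, 12.52 and 13.05 with vehicle, 13.45, 12.67 and 12.67 with dexamethasone and 12.41, 12.03 and 11.86 with both hormones. Animals given both hormones were the lowest, at -0.83 ± 0.27 from dexamethasone (adjusted p = 0.306, limma), and did not overlap the other groups.

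Among 23 listed genes of mTORC1 and Myc control, 20 were tested, and 3 rose with dexamethasone while none fell. Of all probe sets tested, 1.05% passed in that comparison. At an unadjusted p under 0.05 there were 8 of the 20, against 15.5% of all. Ddit4, an inhibitor of mTORC1, read 7.24, 7.23 and 7.76 with vehicle and 10.26, 11.51 and 10.22 with dexamethasone, a rise of 3.25 ± 0.42 (adjusted p = 0.0206, limma). Eif4ebp1, the translation repressor 4E-BP1, rose by 2.47 ± 0.38 (adjusted p = 0.0306) and Sesn1, another inhibitor of mTORC1, by 1.18 ± 0.19 (adjusted p = 0.0324). None of the 20 passed with testosterone added (0.113% of all did) or with both hormones against vehicle (0% of all). Unadjusted p-values under 0.05 numbered 6 and 1 of the 20 there, against 11% and 6.12% of all. All 3 dexamethasone animals lay far above the vehicle animals for Ddit4, Eif4ebp1 and Sesn1. These include animals 1 and 2, which stood on opposite sides of vehicle for the ribosomal proteins.

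Rps6kb1, the S6 kinase that phosphorylates the Rps6 protein, read 10.01, 9.88 and 10.17 with vehicle, 9.44, 9.36 and 9.70 with dexamethasone and 10.38, 10.20 and 10.63 with both hormones. Its 3 groups did not overlap and stood in the same order as those of Rpl3l, but no difference passed the adjusted threshold (-0.52 ± 0.19, adjusted p = 0.24, with dexamethasone and 0.90 ± 0.19, adjusted p = 0.116, with testosterone added, limma). Myc, a transcriptional activator of ribosome synthesis, differed by 0.81 ± 0.24 with dexamethasone (adjusted p = 0.146) and by -1.04 ± 0.24 with testosterone added (adjusted p = 0.134).

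**Figure D5:**
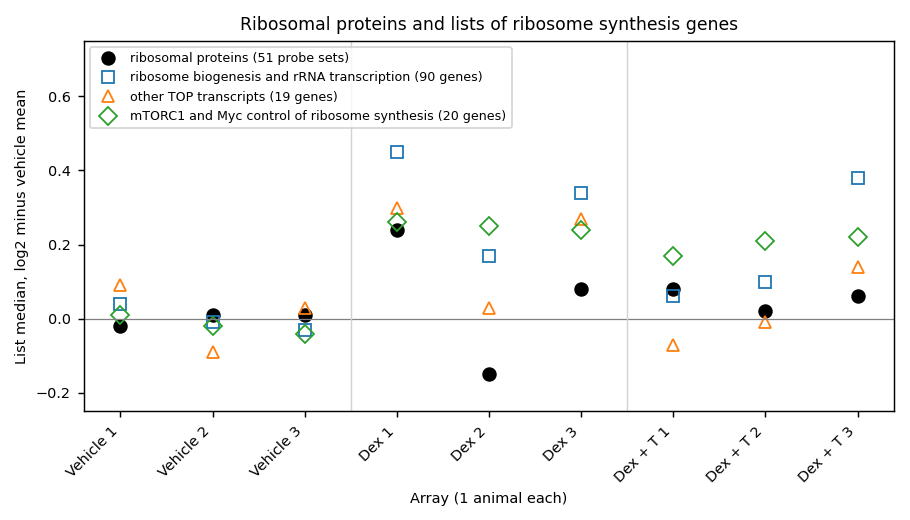
Median log2 signal minus the vehicle mean on each of the 9 arrays for the 51 ribosomal protein probe sets (filled circles), 90 ribosome assembly genes (squares), 19 other TOP transcripts (triangles) and 20 genes of mTORC1 and Myc control (diamonds). In dexamethasone animal 2 the assembly genes lie at 0.17 and the ribosomal proteins at -0.15.

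Ribosomal proteins are made by every cell type of the muscle, so markers of the other types are given beside them. Only 1 of these markers, Mfap5, passed the adjusted threshold in any comparison. The 8 fibroblast markers had a median change of -2.27 with dexamethasone, and their summed linear signal was 28100 to 43600 in the vehicle animals, 4550 to 16500 with dexamethasone and 13000 to 33500 with both hormones. Of the 8, Mfap5, a microfibril protein, fell by 1.75 ± 0.29 with dexamethasone (adjusted p = 0.0338, limma). The fibroblast medians of dexamethasone animals 1 to 3 were -3.02, -1.77 and -1.33, where the ribosomal protein medians were 0.24, -0.15 and 0.08. Summed signals of the 3 erythroid markers found on the array, 2 of them tested, were 5420 to 7770, 1190 to 4630 and 2760 to 6090 in the 3 groups. Those of the 8 macrophage markers were 1870 to 2210, 942 to 3360 and 878 to 2360. Only 1 of 6 lymphocyte markers was tested, Cd3e, Cd3d, Cd2 and Cd79b being below the filter. The 5 endothelial, 2 satellite cell and 3 adipocyte markers tested had median changes of -0.09, 0.29 and -0.01 with dexamethasone. The 2 satellite cell markers went opposite ways, Cdh15 at 1.18 ± 0.29 and Vcam1 at -0.61 ± 0.28. So did Kdr (-0.93 ± 0.23) and Flt1 (0.79 ± 0.26) among the endothelial markers, of which 2 of 5 were above 0. The part of cell composition in the ribosomal protein values was not tested.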

How the data were processed

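The authors' deposited values were linear signal intensities per probe set, without a stated signal algorithm; per the labels' protocols, RNA was labelled by the standard Affymetrix procedure. Probe sets were named through the platform annotation; 20826 had 1 symbol, and 57 Affymetrix control probe sets were left out. In R 4.3.3, values were taken as log2(intensity + 16) and quantile normalised, because array medians spanned 1.82 (log2), more than 0.1. Probe sets with a mean under the 40th percentile were left out. limma 3.58.1 (lmFit, eBayes) was fitted over all 9 arrays with a mean per group, with Benjamini-Hochberg adjustment over the 18625 probe sets tested and a threshold of 0.05. The script was tested on simulated data. Arrays are single animals and their number limits the precision.

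Named genes were, in each comparison, the 8 members with the lowest unadjusted p (1 probe set per gene), a list named whatever its result, the 5 largest and 5 smallest SDs, and from the pathway lists those past the threshold or with the lowest p; others are named as chosen after their values were seen. Members and lists were chosen with earlier results of these data known. Same-numbered arrays did not all deviate together (correlations of deviations -0.2 to 0.59), so numbers were not used as pairs. Arrays of 1 technical set gave 0.3, 0.14 and 0.37 in set B and 0.59 in set C, while arrays of sets B and C reached -0.54 between them. The main fit held no term for the technical sets. Alternatives were other scalings, pseudocounts, filters, blocks, array weights and omitted arrays. Start regions came from RefSeq, GRCr8.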

Additional observations from a re-analysis of the deposited data

How the results depend on the processing

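The count of ribosomal protein probe sets past the adjusted threshold stayed at 0 in each of 24 alternative settings per comparison, and the lowest adjusted p in any of them was 0.205 with dexamethasone, 0.139 with testosterone added and 0.216 with both hormones against vehicle (limma). Unadjusted counts were 0 to 2, 0 to 2 and 0 to 1. The median change was moved by restricting to 1 technical set: 0.26 (set A) and -0.16 (set B) with dexamethasone, -0.21 and 0.18 with testosterone added, and 0.09 and 0.01 with both hormones. For the last it was 0.08 under trimmed mean scaling (-0.08 over all probe sets) and -0.02 under cyclic loess; the cause was not tested. Leaving out 1 array gave medians of -0.03 to 0.16 with dexamethasone, -0.14 to 0.12 with testosterone added and 0.04 to 0.06 with both hormones. The replicate block holds 1 array of each group per number, so it could not alter the fitted changes (medians 0.07, -0.02 and 0.05). Only the errors could change, and the counts stayed at 0. With the technical set as a block, which is not balanced over the groups, the median with dexamethasone was 0.08 and the count 0. Of 1932 values of single genes under alternatives, 0 passed, 17 moved by more than the replicate SD and 95 had the other sign. Rpl3l kept its sign in each setting run, at 0.33 to 0.52 with testosterone added (adjusted p 0.139 to 0.649). Groups that do not overlap leave little room for another sign when arrays are omitted.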

Other observations

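A further 30 probe sets carried several symbols that were all ribosomal protein genes, of which 29 were tested; adding them was decided after seeing the data. None passed in any comparison (limma, adjusted), and 0 had an unadjusted p under 0.05. Their median changes were 0.07 with dexamethasone, -0.02 with testosterone added and 0.03 with both hormones against vehicle. Their array medians were 0.29, -0.09 and 0.06 in the dexamethasone animals and 0.09, 0.01 and 0.03 with both hormones, the same order of dexamethasone animals as in the single-symbol members.

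The array also carries a control probe set for the ribosome's smallest RNA. Its signal, scaled to a trimmed mean of 500, was 282, 189 and 223 in the vehicle animals, 205, 225 and 195 with dexamethasone and 314, 218 and 321 with both hormones. The 3 groups overlapped.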
